A study of Rattus norvegicus with 12 samples.

Results

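The 10 genes described here serve the uptake and oxidation of fatty acids in heart muscle and were taken by Ensembl identifier from a table of 32883 rat genes. They are Fabp3 (ENSRNOG00000012879), Lpl (ENSRNOG00000012181), Cd36 (ENSRNOG00000005906), Cpt1b (ENSRNOG00000010438), Cpt1a (ENSRNOG00000014254), Hadha (ENSRNOG00000024629), Acadm (ENSRNOG00000009845), Pdk4 (ENSRNOG00000009565), Ppara (ENSRNOG00000021463) and Ppargc1a (ENSRNOG00000004473). All 10 lie on nuclear chromosomes. Their levels were read in 12 libraries of ventricular cardiomyocytes from Wistar rat pups of 1 to 2 days, isolated by trypsin and a Percoll gradient. The libraries formed 4 groups of 3, namely input total RNA of mock-treated cells, input of cells given phenylephrine (PE) for 24 h, and the RNA that an antibody against Cpeb4 precipitated from each (IP). PE activates alpha-adrenergic receptors and induces hypertrophy of cardiomyocytes, and Cpeb4 is a cytoplasmic RNA-binding protein that acts on the poly(A) tails of its target transcripts. No precipitate made with another antibody was analysed here. Whether the replicates are separate cultures or litters is not stated, so the spread behind each p-value is that among these libraries and may be technical.

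The heart draws most of its energy from fatty acids after birth, and before birth it relies more on glucose and lactate. Lipoprotein lipase, the product of Lpl, releases fatty acids from circulating lipids, Cd36 carries them across the cell membrane, and Fabp3 binds them in the cytosol. The carnitine palmitoyltransferases Cpt1a and Cpt1b admit long-chain fatty acids to mitochondria, with Cpt1b the muscle isoform and Cpt1a the liver isoform that the fetal heart also expresses. Acadm and Hadha encode enzymes of beta oxidation. Pdk4 restrains glucose oxidation, Ppara is a nuclear receptor that fatty acids activate, and Ppargc1a is a coactivator of mitochondrial genes.

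Library totals ranged from 1423334 to 30216559 counts, and between 8455 and 11822 genes had a count. The fewest genes were detected in IP mock replicate 2 (8455 genes at 17838962 counts), input PE replicate 1 (8887 at 5167090) and input mock replicate 2 (9434 at 4981399). These 3 libraries stood apart from their groups in several of the results that follow, which are therefore given with all 12 libraries and also without both pools of mock replicate 2 and of PE replicate 1 where that changed a call. The sources used here do not pair the identifiers with symbols beyond the 10 genes, so cardiomyocyte markers, markers of other heart cells and further genes of fatty acid metabolism were not read. Lpl and Cd36 are also made by endothelial cells, macrophages and adipocytes.

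Of the 10 transcripts, 7 were detected well enough to be tested and 3 were at or near 0. Levels are given as CPM, counts scaled to a common library size, after TMM normalisation. TMM corrects for differences between libraries in how counts are spread over genes (their composition). Its factors were 0.489 to 0.959 in input and 1.40 to 1.59 in IP, and the cause of this gap was not tested. The libraries read the 3′ end of transcripts, and the levels of different genes were not corrected for length, so an order of genes is an order of 3′ end counts. In mock input that order was Fabp3 at 326 ± 109 CPM (SD, n = 3), Hadha at 315 ± 169 CPM, Lpl at 165 ± 35.9 CPM, Cpt1b at 56.0 ± 15.9 CPM, Acadm at 53.4 ± 13.3 CPM, Cpt1a at 10.8 ± 3.84 CPM and Ppargc1a at 7.70 ± 3.36 CPM. Fabp3 overlapped with Hadha, Hadha with Lpl, Cpt1b with Acadm, and Cpt1a with Ppargc1a. Lpl lay above Cpt1b, and Acadm above Cpt1a, in all 3 libraries. Hadha and Fabp3 together accounted for most counts of the 10 genes over all libraries, with 40.3% and 31.8%. Mean levels over all 12 libraries, precipitates and PE cells included, were also ranked among the 10491 genes tested. Hadha stood at percentile 96.9, Fabp3 at 96.2, Lpl at 92.5, Acadm at 84.0, Cpt1b at 80.5, Cpt1a at 45.5 and Ppargc1a at 39.4.

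**Figure D1:**
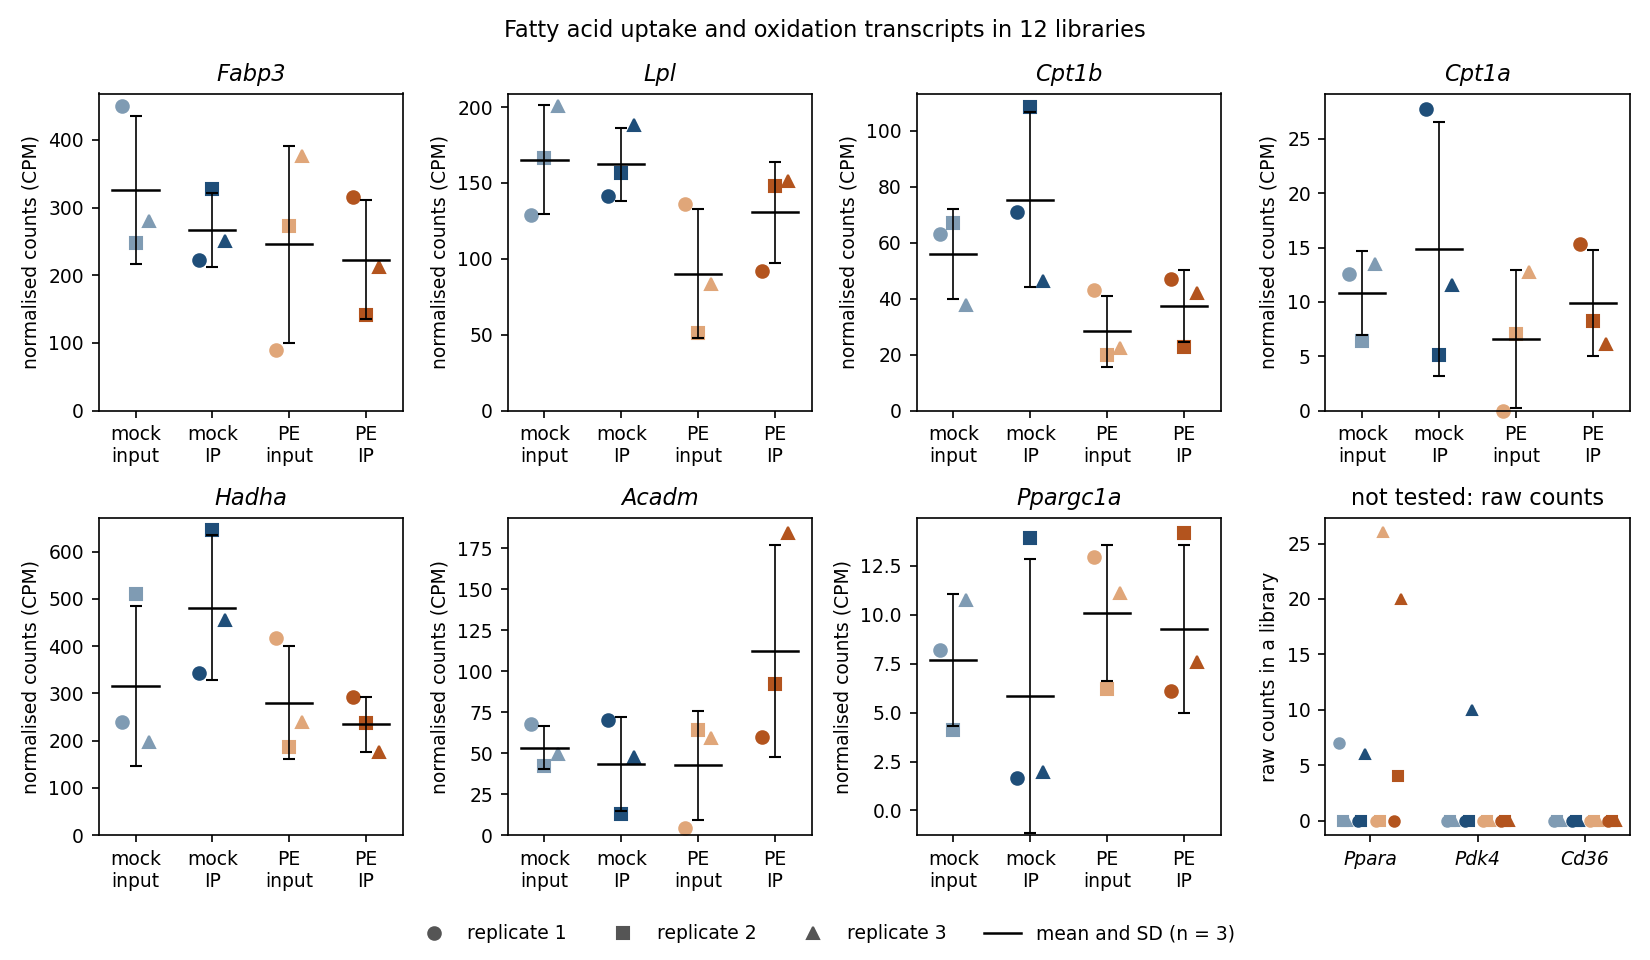
Normalised counts (CPM, TMM-scaled; vertical axes) of the 7 tested transcripts in mock input, mock IP, PE input and PE IP, with 1 point per library, a bar at the mean and whiskers of 1 SD (n = 3), and raw counts of the 3 genes not tested. Hadha is highest of its group in replicate 2 of mock input and mock IP and in replicate 1 of PE input, at 509, 646 and 416 CPM. Cd36 is at 0 in all 12 libraries.

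Fabp3, the most abundant transcript of the uptake group, had 451, 247 and 280 CPM in mock input replicates 1 to 3 and 89.3, 272 and 376 CPM in PE input. The precipitates held 223, 327 and 251 CPM in mock cells and 316, 141 and 213 CPM in PE cells. Every pair of groups overlapped, and the single low value was that of input PE replicate 1. Lpl had 129, 167 and 200 CPM in mock input, 136, 51.5 and 83.4 CPM in PE input, 142, 157 and 188 CPM in mock IP and 92.1, 148 and 151 CPM in PE IP. PE input replicates 2 and 3 were the lowest of the 12 Lpl values, while PE input replicate 1 lay within the range of the mock inputs.

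No read was assigned to Cd36 in any library, 0 of 130541386 counts. A floor of 3 counts allows at most 0.0230 CPM of the total over all libraries. In a single library the limit lies between 0.0993 and 2.11 CPM of its total, and between 0.0629 and 4.04 CPM after TMM scaling. These limits cover counting error only. In the RefSeq annotation of the GRCr8 assembly, Cd36 has 2 genes of similar name, Cd36l1 and Cd36-ps1, among its 4 nearest neighbours on either side. The counts were made on another build, Rnor_6.0. The sources used here do not say how the authors counted reads that match several genes, and the reason for the 0 was not tested. The value is therefore a gene listed at 0, and the level of fatty acid translocase transcripts in these cells stays uncertain.

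Cpt1b, the muscle isoform at the mitochondrial gate, had 63.3, 66.9 and 37.7 CPM in mock input and 43.0, 19.9 and 22.3 CPM in PE input. In the precipitates it had 71.1, 109 and 46.4 CPM in mock cells and 47.2, 22.7 and 42.0 CPM in PE cells. In each pool the lowest mock library lay just below the highest PE library, and all other mock libraries lay above all PE libraries. Cpt1a was scarcer, with 12.6, 6.4 and 13.5 CPM in mock input, 0, 7.01 and 12.7 CPM in PE input, 27.8, 5.12 and 11.6 CPM in mock IP and 15.3, 8.27 and 6.10 CPM in PE IP. Its 0 was in input PE replicate 1, and its next lowest raw count was 10, in input mock replicate 3, with an exact Poisson 95% interval from 4.80 to 18.4 counts.

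Hadha, the alpha subunit of the mitochondrial trifunctional protein, had 240, 509 and 198 CPM in mock input, 416, 186 and 239 CPM in PE input, 343, 646 and 454 CPM in mock IP and 292, 237 and 175 CPM in PE IP. All 3 mock precipitates lay above all 3 PE precipitates. Acadm, the medium-chain acyl-CoA dehydrogenase, had 68.1, 42.3 and 49.8 CPM in mock input, 4.45, 64.1 and 59.2 CPM in PE input, 70.3, 13.2 and 47.4 CPM in mock IP and 59.9, 92.5 and 185 CPM in PE IP. Its lowest values were those of input PE replicate 1 and IP mock replicate 2, where Hadha was highest in its group.

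Ppargc1a was the only gene of the control group that could be tested. It had 8.21, 4.11 and 10.8 CPM in mock input, 12.9, 6.20 and 11.1 CPM in PE input, 1.67, 13.9 and 1.95 CPM in mock IP and 6.08, 14.2 and 7.60 CPM in PE IP. Mock IP replicate 2 lay far above the other mock precipitates. Ppara had 63 counts in all, with 7 in input mock replicate 1, 6 in IP mock replicate 3, 26 in input PE replicate 3, 4 in IP PE replicate 2, 20 in IP PE replicate 3 and 0 in the other 7 libraries. Pdk4 had 10 counts, all in IP mock replicate 3, and 0 in the other 11. Neither Ppara, Pdk4 nor Cd36 passed the filter on low counts, and a floor of 3 counts puts the limit for a library at 0 between 0.0993 and 2.11 CPM of its total.

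The balance between members of the pathway was read as a ratio of counts within a library, which does not depend on how libraries are scaled. The ratio of Hadha to Acadm, with 1 count added to each, was 3.51, 12 and 3.89 in mock input, 2.90 and 4.04 in PE input replicates 2 and 3, 4.88 and 9.57 in mock IP replicates 1 and 3, and 4.87, 2.56 and 0.951 in PE IP. It reached 89.6 in PE input replicate 1 and 49.0 in mock IP replicate 2. The 3 highest ratios belonged to the 3 libraries with the fewest detected genes. This ratio was chosen after the levels had been seen and was not tested between groups, and the part that the number of detected genes has in it was not tested.

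The ratio of the muscle to the liver carnitine palmitoyltransferase, Cpt1b to Cpt1a, was above 1 in all 12 libraries. It was 4.96, 10.1 and 2.64 in mock input, 214, 2.78 and 1.75 in PE input, 2.55, 21.1 and 3.99 in mock IP and 3.07, 2.69 and 6.76 in PE IP. The value of 214 rests on 213 Cpt1b counts against 0 Cpt1a counts in input PE replicate 1. On the log2 scale the groups averaged 2.35 ± 0.97 (SD, n = 3) in mock input, 3.34 ± 3.82 in PE input, 2.58 ± 1.61 in mock IP and 1.93 ± 0.72 in PE IP. None of 6 two-sided exact permutation tests found a difference, with p from 0.7 to 0.92 and 0.92 after Benjamini-Hochberg adjustment. The smallest p possible was 0.1 for 3 libraries against 3 and 0.005 when labels were permuted within strata over all 12. Without mock replicate 2 and PE replicate 1 all 6 differences changed sign, from 0.99 to -0.71 for PE against mock in input and from -1.41 to 0.95 for IP against input in PE cells. The libraries therefore gave no stable direction for a difference in the isoform balance between groups.

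**Figure D2:**
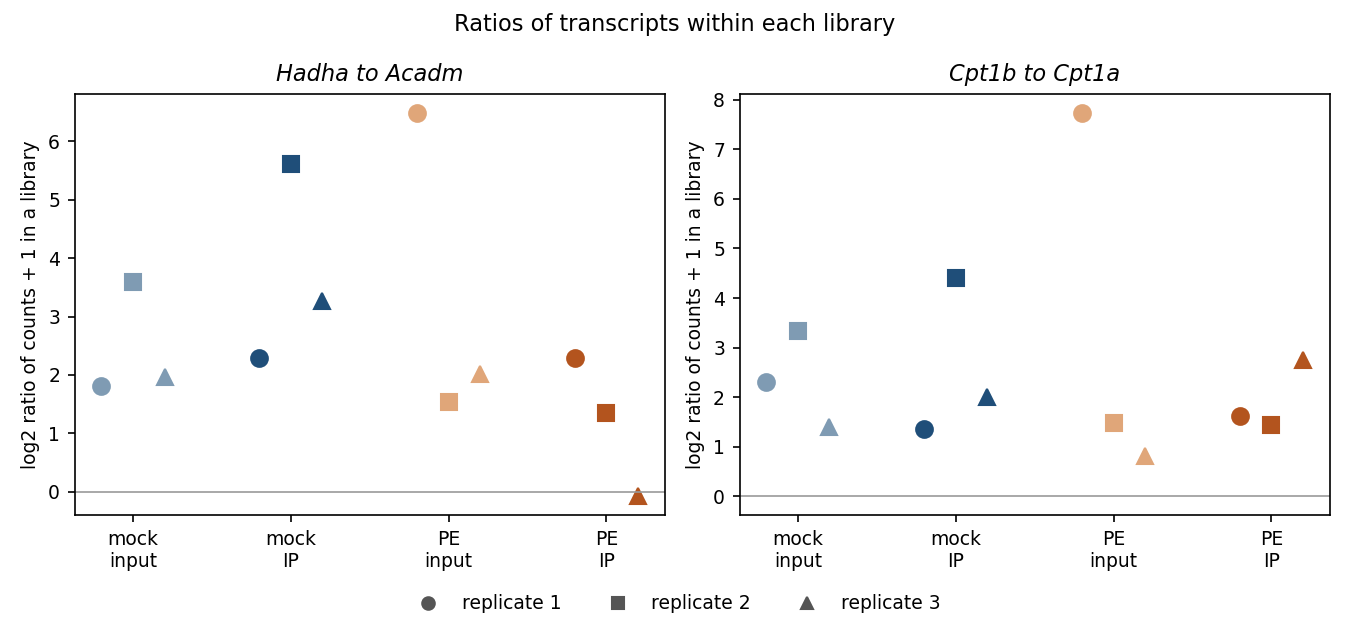
Log2 ratio of raw counts, with 1 added to each count, of Hadha to Acadm (left) and of Cpt1b to Cpt1a (right) in each library of the 4 groups, with a line at equal counts. IP mock replicate 2 and input PE replicate 1 have the highest values in both panels, with ratios of 49.0 and 89.6 for Hadha to Acadm and 21.1 and 214 for Cpt1b to Cpt1a.

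IP against input asks which transcripts were over- or under-represented among those that the Cpeb4 antibody recovered. A gene was called where edgeR's quasi-likelihood test gave a Benjamini-Hochberg adjusted p under 0.05. None of the 7 tested transcripts was called in mock cells. Among mock libraries Hadha averaged 315 ± 169 CPM in input and 481 ± 153 CPM in IP (n = 3 each). Its log2 fold change was 0.61 with an SE of 0.41, a 95% interval from -0.26 to 1.47 and an adjusted p of 0.675 by edgeR. Cpt1b was at 0.42, Cpt1a at 0.47, Lpl at -0.02, Fabp3 at -0.29, Acadm at -0.30 and Ppargc1a at -0.37. Several values turned on single libraries: without mock IP replicate 2 Ppargc1a stood at -2.05, and without mock IP replicate 1 Cpt1a stood at -0.36 (edgeR adjusted p = 0.696 and 0.982). With 1 library left out Acadm ran from -0.82 to 0.14, while Hadha stayed positive, from 0.34 to 1.14. Of all 10491 genes, 0.743% were called at an adjusted p under 0.05, 10.8% had an unadjusted p under 0.05 and in 17.9% the IP and input libraries were fully separated. The 7 transcripts counted 0 in each of these ways. Their median log2 fold change was -0.02 against 0.11 for all genes.

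In PE cells the transcript with the largest difference was Acadm, with 42.6 ± 33.1 CPM in input and 112 ± 64.7 CPM in IP (n = 3 each). Its log2 fold change was 1.40 with an SE of 0.78 and an adjusted p of 0.558 by edgeR. The interval from -0.27 to 3.06 reached from a ratio of 0.832 to one of 8.35. Lpl was at 0.53 (SE 0.38), Cpt1a at 0.59, Cpt1b at 0.40, Ppargc1a at -0.13, Fabp3 at -0.14 and Hadha at -0.26. Cpt1a stood at -0.01 without PE input replicate 1 and at 1.51 without PE input replicate 3. No transcript was called, had an unadjusted p under 0.05 or separated the groups without overlap, where 2.11%, 11.7% and 22.2% of all genes did. The median was 0.40 for the 7 transcripts and 0.18 for all genes.

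Averaged over both treatments, IP was above input for 5 of the 7 transcripts, and the values of Fabp3 and Ppargc1a were negative. They lay between -0.25 for Ppargc1a and 0.55 for Acadm. Without mock IP replicate 2 Ppargc1a stood at -1.09 (edgeR adjusted p = 0.512). The best measured were Lpl at 0.25 (SE 0.27, 95% interval -0.31 to 0.82), Hadha at 0.17 (SE 0.29, -0.43 to 0.78) and Fabp3 at -0.21 (SE 0.32, -0.88 to 0.46). For these 3 the intervals over 12 libraries leave out enrichments above a limit, relative to the TMM scaling. The limits were 1.76-fold for Lpl, 1.72-fold for Hadha and 1.37-fold for Fabp3. They do not hold for every set of libraries: Lpl stood at 0.54 (SE 0.23) without both pools of mock replicate 2 and PE replicate 1. With all 12 libraries again 0 of 7 were called and 0 had an unadjusted p under 0.05 (edgeR), against 5.88% and 18.4% of all genes. The DESeq2 Wald test and limma voom also called 0 in each of the 6 comparisons.

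The direction of these values depends on what the transcripts are compared with. Scaled by library totals, without the correction for composition, the median over all genes moved up by 1.15 on the log2 scale, and all 7 transcripts then lay above 0. Of these, 5 were called, namely Lpl at 1.33, Cpt1b at 1.47, Acadm at 1.80, Hadha at 1.17 and Fabp3 at 1.03 (edgeR adjusted p = 0.00980, 0.0154, 0.0154, 0.0345 and 0.0193), where 27.5% of all genes were. In PE cells alone 1 was called on this scale, Acadm at 2.65 (edgeR adjusted p = 0.0424), against 6.34% of all genes. The median of the 7 under this scaling was 1.33 and that of all genes 1.31. As a share of raw counts the 10 genes together held 0.0412% to 0.0916% of each input and 0.101% to 0.185% of each precipitate, without overlap. How many of all genes were separated in this way was not counted, and Hadha and Fabp3 made up most of these counts. On this scale the median of the 7 transcripts lay as far above 0 as that of all genes.

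Without both pools of mock replicate 2 and of PE replicate 1, which hold the 3 libraries with the fewest genes, Fabp3 and Lpl were called. Fabp3 was then lower in IP over both treatments, at -0.79 on the log2 scale with an SE of 0.20 and an adjusted p of 0.0125 by edgeR, and was at -0.66 in mock and -0.91 in PE cells (edgeR adjusted p = 0.250 and 0.0553). Lpl was higher in the PE precipitates than in PE input, at 1.11 (SE 0.32, edgeR adjusted p = 0.0365), and at -0.02 in mock cells. These are 1 of 7 transcripts each, against 14.3% of all genes called over both treatments and 9.08% in PE cells with the same 8 libraries. With only the PE replicate 1 pair left out, Lpl in PE cells stood at 1.14 and Fabp3 over both treatments at -0.59, neither of them called (edgeR adjusted p = 0.252 and 0.260). With only the mock replicate 2 pair left out they stood at 0.53 and -0.38 (edgeR adjusted p = 0.550 and 0.636). The Lpl value was thus as large without the PE replicate 1 pair alone as without all 4 libraries, and that of Fabp3 lay between. The sign of the Fabp3 value is opposite on the scale of library totals.

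**Figure D3:**
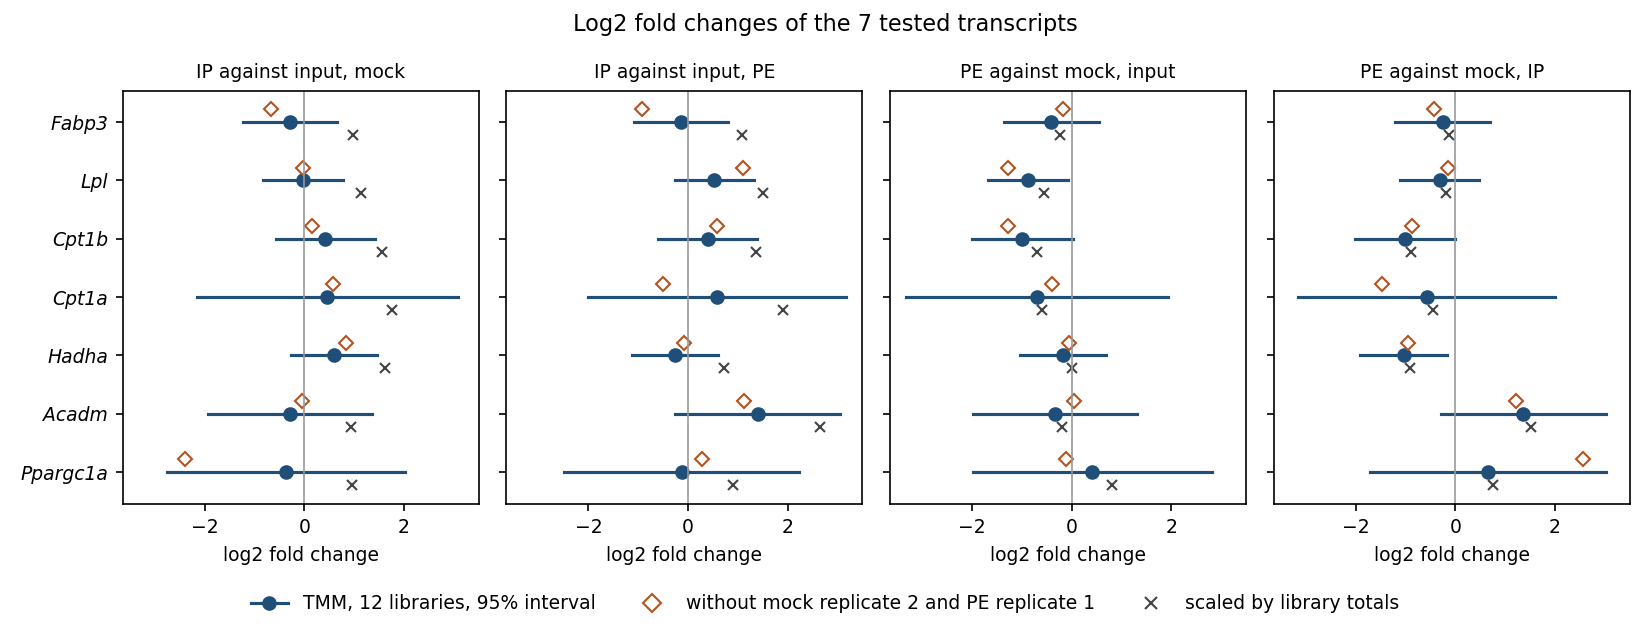
Log2 fold changes (horizontal axes) of the 7 tested transcripts in 4 comparisons: filled points and bars give the TMM-scaled fit of 12 libraries with its 95% interval, diamonds the fit without mock replicate 2 and PE replicate 1, and crosses the fit scaled by library totals. In the left pair of panels, IP against input, the crosses lie to the right of 0 for all 7 transcripts, whereas the filled points lie on either side, from -0.37 to 0.61 in mock cells and from -0.26 to 1.40 in PE cells.

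PE against mock asks what a day of hypertrophic stimulation did to these transcripts. In input RNA, 6 of 7 had a negative log2 fold change, with a median of -0.41 against 0.06 for all genes, but none was called. Cpt1b averaged 56.0 ± 15.9 CPM in mock and 28.4 ± 12.7 CPM in PE input (n = 3 each). Its log2 fold change was -0.99 with an SE of 0.48, an interval from -1.995 to 0.02 and an adjusted p of 1 by edgeR. Lpl averaged 165 ± 35.9 CPM in mock and 90.3 ± 42.7 CPM in PE input. Its log2 fold change was -0.87 with an SE of 0.38, an interval from -1.67 to -0.07 and an adjusted p of 1 by edgeR. Lpl was the 1 transcript of 7 with an unadjusted p under 0.05 in edgeR, where 3.57% of all genes had one. Fabp3 was at -0.41, Cpt1a at -0.69, Acadm at -0.33, Hadha at -0.17 and Ppargc1a at 0.41. Cpt1a moved to -0.11 without PE input replicate 1 and to -1.62 without PE input replicate 3. With 1 library left out Acadm ran from -0.73 to 0.21 and Hadha from -0.58 to 0.36. Of all genes 0.00953% were called, which is 1 gene, and 9.85% had no overlap between PE and mock, against 0 of 7 here. In bulk RNA, fewer cells of a type and less RNA per cell cannot be told apart.

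Cpt1b and Lpl kept a negative value for PE against mock in input under all 23 alternatives, between -1.41 and -0.69 for Cpt1b and between -1.29 and -0.55 for Lpl. Cpt1a and Fabp3 also stayed negative, from -1.62 to -0.11 and from -0.85 to -0.00202. The alternatives reuse the same libraries, and leaving out an IP library could hardly move an input value. Cpt1b, for example, went from -0.987 to -0.985 without mock IP replicate 1. Over these fits with edgeR, DESeq2 and limma the adjusted p was never below 0.516 for Cpt1b and 0.307 for Lpl. Without mock replicate 2 and PE replicate 1 both stood at about the same size, -1.29 for Cpt1b and -1.28 for Lpl (edgeR adjusted p = 0.608 and 0.307). The interval of Lpl over 12 libraries covered PE levels from 0.314 to 0.954 of the mock level.

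In the precipitates, PE against mock gave negative values for 5 of 7 transcripts, with a median of -0.31 against 0.12 for all genes, and again 0 calls. Hadha averaged 481 ± 153 CPM in mock IP and 235 ± 58.2 CPM in PE IP (n = 3 each). Its log2 fold change was -1.04 with an SE of 0.41, an interval from -1.90 to -0.17 and an adjusted p of 0.760 by edgeR. It was the 1 transcript of 7 whose PE and mock precipitates did not overlap, as was the case for 14.9% of all genes. Cpt1b averaged 75.4 ± 31.3 CPM in mock IP and 37.3 ± 12.9 CPM in PE IP, and its log2 fold change was -1.01 with an SE of 0.47 and an adjusted p of 0.897 by edgeR. Hadha and Cpt1b were the 2 of 7 with an unadjusted p under 0.05 in edgeR, where 5.54% of all genes had one and 0.00953% were called. Acadm was on the other side, with 43.6 ± 28.8 CPM in mock IP and 112 ± 64.7 CPM in PE IP, and its log2 fold change was 1.37 with an SE of 0.77 and an adjusted p of 1 by edgeR. Lpl was at -0.31, Fabp3 at -0.26, Cpt1a at -0.57 and Ppargc1a at 0.66. Without mock IP replicate 2 Ppargc1a stood at 2.34, and without that number and PE replicate 1 in both pools at 2.57 (edgeR adjusted p = 1 and 0.261), while Cpt1a stood at 0.25 without mock IP replicate 1.

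Hadha in the precipitates was negative under all 23 alternatives, from -1.23 to -0.76, and Acadm was positive under all 23, from 0.80 to 1.89, with an adjusted p by edgeR, DESeq2 or limma never below 0.127 and 0.142. A constant sign did not set them apart: Cpt1b, Lpl, Fabp3 and Ppargc1a kept theirs too, and Cpt1a changed sign in 1. Leaving out an input library could hardly move these values, with Hadha at -1.04 without mock input replicate 1. Hadha and Acadm act in the same pathway of beta oxidation, and their values in PE against mock precipitates were of opposite sign. Cpt1b stood at -0.99 in input and at -1.01 in IP. Input and IP columns of the same number also share a letter in the deposited table, and whether they come from the same lysate is not stated, so these values may not be independent. Cpt1b had the same order of replicates in both pools, in mock cells and also in PE cells.

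**Figure D4:**
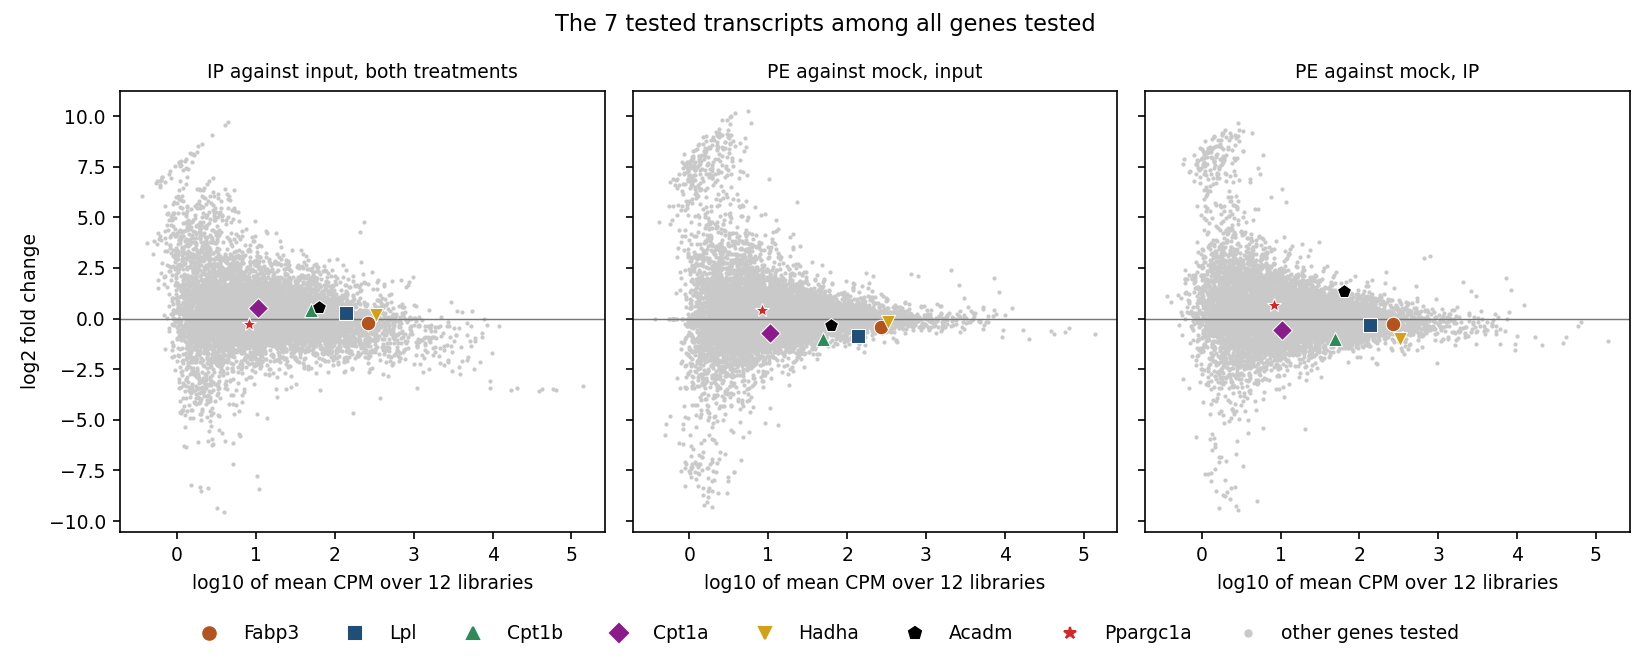
Log2 fold change (vertical axis) against the log10 of the mean CPM over 12 libraries for all 10491 genes tested (grey) and for the 7 transcripts (coloured symbols), in 3 panels: IP against input over both treatments (left), then PE against mock for the input pool (middle) and for the precipitates (right). The 7 transcripts lie among genes of similar level, between -1.04 (Hadha, PE against mock in IP) and 1.37 (Acadm, same comparison).

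Whether PE changed the recovery of a transcript with Cpeb4 was tested as the difference between IP against input in PE and in mock cells. None of the 7 was called and, in the fit of 4 group means, 0 had an unadjusted p under 0.05 (edgeR, adjusted p = 1.00 for each), against 0% and 2.58% of all genes. Acadm had the largest difference, 1.69 (SE 1.09, 95% interval -0.64 to 4.03), followed by Hadha at -0.86 (SE 0.58, -2.08 to 0.36) and Lpl at 0.56 (SE 0.53, -0.57 to 1.68). Cpt1b was at -0.02 (SE 0.67), Fabp3 at 0.15 (SE 0.63), Cpt1a at 0.12 (SE 1.73) and Ppargc1a at 0.24 (SE 1.59). The last stood at 1.92 without mock IP replicate 2, and Cpt1a between -0.48 and 1.05 with 1 library left out. Even for Lpl, the best measured, the interval reached from 0.674-fold to 3.20-fold.

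The width of these intervals followed the spread between libraries. The biological coefficient of variation that edgeR estimated was 0.384 for Lpl, 0.407 for Hadha, 0.434 for Fabp3 and 0.457 for Cpt1b, against trend values for genes of their level of 0.453, 0.432, 0.435 and 0.528. All 4 lay below their trend values. Acadm varied more than its trend, at 0.655 against 0.499. Cpt1a and Ppargc1a had 0.961 and 0.879, against 0.972 and 1.08. For PE against mock in input, the 95% interval of the ratio ran from 0.0999 to 3.83 for Cpt1a and from 0.252 to 7.03 for Ppargc1a.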

How the data were processed

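The authors deposited raw counts per gene for 12 libraries as 1 table without normalization. Per the labels' protocols, libraries were made with a Lexogen Quant-Seq kit, a kind that reads transcripts near the 3′ end. Among the tools, STAR 2.7, cutadapt 2.5, DESeq2 and featureCounts 1.6.4 appear in the submitters' processing notes, with the build Rnor_6.0 and no roles or options. Rows of the mitochondrial genome could not be told by name, so the fit used the whole table, and an alternative left out the 10 most abundant features.

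Counts were tested with edgeR 4.0.16 in R 4.3.3: filterByExpr (10491 genes, at least 99.6% of each library's counts), TMM factors, robust quasi-likelihood F-tests of 4 group means over 12 libraries, and Benjamini-Hochberg adjustment over all genes of a contrast (threshold 0.05). SE is the log2 fold change divided by the square root of F. CPM uses the TMM factors. Replicate libraries differed by more than sampling noise (chi-square per degree of freedom at least 7.79). Alternatives used DESeq2 1.42.0, limma 3.58.1 and the settings given in the closing section. The fits of IP against input over both treatments were run on simulated counts with known changes in IP. That check was on the median log2 fold change recovered, and not on the number of calls or on PE against mock. The protocols name no molecular identifiers, and PCR copies are not separate molecules, so intervals and floors on counts cover counting error only. The genes, tests and lists were chosen with earlier results of these data known, and all 10 genes are named by rule. Lists of further pathway genes and cell type markers could not be run without symbols.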

Additional observations from a re-analysis of the deposited data

How the results depend on the processing

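No transcript was called in any of the 6 comparisons with 12 libraries, and the 24 alternatives left that at 0 except for 5 and 1 called (IP against input over both treatments and in PE cells) with library totals, and 1 and 1 without mock replicate 2 and PE replicate 1; leaving out those 4 libraries one pair at a time was added after the data had been seen. Fabp3 over both treatments reversed to 1.03 with library totals. Of 42 values of a transcript in a comparison, 22 kept their sign under all alternatives run for them and 20 did not; library totals changed 10 signs. A replicate block within treatment gave 0 calls, as did a replicate block across treatments. For the difference in IP against input between PE and mock cells, the block within treatment put Acadm at 2.46 (SE 0.82) and Hadha at -0.89 (SE 0.39), both with an unadjusted p under 0.05 and an edgeR adjusted p of 1. The numbers were not taken to pair libraries: input and IP of 1 number had correlations of deviations from 0.0171 to 0.242, not all above 0.1, and not every library correlated best with its own number. The log2 ratio of Cpt1b to Cpt1a reversed without mock replicate 2 and PE replicate 1: for IP against input to -0.18 in mock cells, 0.95 in PE cells and 0.38 over both, and for PE against mock to -0.71 in input, 0.42 in IP and -0.15 over both. With 1 library left out these ran, in that order, from -0.68 to 0.85, -2.67 to 0.79, -1.22 to 0.51, -1.21 to 2.26, -1.26 to 0.26 and -0.93 to 0.81. For each of these moves the cause was not tested. A fit with mitochondrial rows kept is the one reported and was not run separately; leaving out the 10 most abundant features changed 0 of 42 signs. Ppara and Pdk4 had too few counts to be tested.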
